A study of Mus musculus with 2 samples.

Results

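The genes described here are 10 secreted growth factors and carriers of skin, namely the platelet-derived growth factor (PDGF) ligands Pdgfa, Pdgfb and Pdgfc, the insulin-like growth factors (IGFs) Igf1 and Igf2, and the IGF binding protein genes Igfbp2, Igfbp3, Igfbp4, Igfbp5 and Igfbp7. They were chosen by gene symbol, and all 10 were found among the 24346 genes listed in each library. The libraries came from wounded dorsal skin of C57BL/6J pups that were injured at 1 day of age and sampled 24 h later, with 1 WT library and 1 PU.1-/- library (labelled PU.1_KO) from littermates. Spi1 encodes PU.1, which drives the formation of myeloid cells, and the knockout is constitutive, so that all cells of the wound carry it and macrophages, neutrophils and mast cells are not formed. The number of pups per library is not stated, and with no replicate the comparison is between these libraries, with no p-value and no measure of the spread between animals.

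PDGFs are dimers that act on mesenchymal cells through the receptors PDGFRα and PDGFRβ. PDGF-A acts through PDGFRα on fibroblasts, PDGF-B binds both receptors and recruits pericytes to vessels, and PDGF-C is secreted in a latent form that a protease must cut. The IGFs act through the receptor IGF1R. IGF2 is the fetal growth factor of this pair and is imprinted, and IGF1 is the growth factor of postnatal life, made by the liver under growth hormone and locally by fibroblasts, macrophages and muscle. The binding proteins carry IGFs in blood and matrix and hold them away from the receptor until proteases such as PAPP-A and PAPP-A2 cut them, while IGFBP7 binds IGFs only weakly.

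Expression was measured as FPKM, fragment numbers divided by transcript length and by library depth, so that levels of different genes can be set side by side within a library. Depth was estimated from the whole-read steps in the values of low genes, and came to 1.368e+07 fragments in the WT library and 1.574e+07 fragments in the other. Ratios are given with an exact binomial 95% interval on read numbers estimated from this depth and from transcript length, which covers counting error only. Where a gene has several transcripts, the shortest was used, which gives the widest interval. Spi1 was 35.4 FPKM in WT against 1.45 in PU.1-/-, 24.3 times lower (interval 17.8 to 33.9). Xist was listed at 0 in WT and at 9.48 FPKM in PU.1-/-, and Ddx3y, on the Y chromosome, at 21.0 FPKM in WT and at 0 in PU.1-/-, so that genotype and sex cannot be told apart in any value below.

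Igf1 and Igfbp2 were the members with the lower level in the PU.1-/- wound, Igfbp4 was nearly equal, and the other 7 were somewhat higher. Igfbp2 lies beside Igfbp5 on chromosome 1, 5590 bases apart, and the pair differed in opposite directions. Their promoters are shown here with a window of Igf1, since PU.1 binds DNA through a GGAA core. The sequences are RefSeq's on GRCm38.p6, the build of mm10, from 250 bases before to 50 bases after a transcript start and 5′ to 3′ on the strand of the gene, and capitals mark each GAGGAA or its reverse complement TTCCTC.
Igf1, chr10:87860861-87861160, plus strand: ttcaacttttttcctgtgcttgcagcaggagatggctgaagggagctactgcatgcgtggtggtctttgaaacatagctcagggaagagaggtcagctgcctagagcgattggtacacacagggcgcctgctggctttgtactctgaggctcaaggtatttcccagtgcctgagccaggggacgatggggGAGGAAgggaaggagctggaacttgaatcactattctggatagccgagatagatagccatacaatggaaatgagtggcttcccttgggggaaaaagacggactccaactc
Igfbp2, chr1:72824230-72824529, plus strand: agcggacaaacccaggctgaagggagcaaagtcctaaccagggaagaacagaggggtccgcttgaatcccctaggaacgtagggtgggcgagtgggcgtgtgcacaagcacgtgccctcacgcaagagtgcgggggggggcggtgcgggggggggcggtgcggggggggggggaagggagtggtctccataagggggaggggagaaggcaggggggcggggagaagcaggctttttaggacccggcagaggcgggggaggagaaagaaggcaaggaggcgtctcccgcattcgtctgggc
Igfbp2, second start, chr1:72825137-72825436, plus strand: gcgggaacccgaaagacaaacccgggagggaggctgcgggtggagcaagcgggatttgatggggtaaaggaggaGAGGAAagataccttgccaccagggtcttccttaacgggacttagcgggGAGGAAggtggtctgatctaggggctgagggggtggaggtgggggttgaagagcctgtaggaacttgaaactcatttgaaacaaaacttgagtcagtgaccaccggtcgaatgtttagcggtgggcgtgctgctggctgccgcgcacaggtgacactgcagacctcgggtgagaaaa
Igfbp5, chr1:72874816-72875115, minus strand: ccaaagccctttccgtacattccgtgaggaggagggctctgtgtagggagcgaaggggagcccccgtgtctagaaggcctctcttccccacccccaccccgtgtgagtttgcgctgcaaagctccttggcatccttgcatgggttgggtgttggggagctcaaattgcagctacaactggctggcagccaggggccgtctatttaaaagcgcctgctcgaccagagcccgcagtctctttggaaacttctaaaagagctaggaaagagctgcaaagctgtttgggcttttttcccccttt
The letters occurred a single time in the Igf1 window, 60 bases before its transcript start, and at 2 places in the window of the second Igfbp2 start. The Igf1 window lies inside the gene, which begins at 87858265, and the sequence before that position was not searched. They occurred in 7 of the 14 windows of the members, belonging to 5 genes (Igf1, Igf2, Igfbp2, Pdgfa and Pdgfc), and in 28.3% of all 32851 windows of the same length. The GC box GGGCGG, searched on both strands like the other motifs, was in 6 of the 14 windows, 3 times in that of the first Igfbp2 start, and in 35.7% of all windows. TATAAA occurred in the Igfbp4 window alone among the 14, 28 bases before the start, and in 13.6% of all windows. The windows held 49.7% to 73.3% G and C, against a median of 52.7% over all windows. A match is a description of letters, and binding was not measured. Pdgfb has no window.

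The first comparison concerned the 3 PDGF ligands, which signal to fibroblasts and pericytes in repair. Pdgfa (chromosome 5, 138976014 to 139000792) was 24.2 FPKM in the WT wound against 27.0 in the PU.1-/- wound. Pdgfb (chromosome 15, 79995865 to 80024614) was 9.17 FPKM in WT against 10.7 in PU.1-/-. Pdgfc (chromosome 3, 81036416 to 81214040) was 3.84 FPKM in WT against 4.69 in PU.1-/-. All 3 were thus slightly higher in the PU.1-/- library, in the order Pdgfa, Pdgfb, Pdgfc in both. The PU.1-/- over WT ratio was 1.12 for Pdgfa (interval 1.01 to 1.25), from about 615 WT and 791 PU.1-/- reads. It was 1.16 for Pdgfb (1.01 to 1.35) and 1.22 for Pdgfc (1.01 to 1.497), and each lower bound lay close to 1. Such small ratios were common in these libraries, as 26.8% of the genes of at least 1 FPKM had a higher ratio than Pdgfa, 21.3% than Pdgfb and 16.0% than Pdgfc.
Pdgfd, the remaining ligand of the family, was low, at 1.36 FPKM in WT, with a log2 ratio of 0.14 and an interval of the ratio of 0.665 to 1.84. The composition of the family was almost the same in both wounds. Pdgfa made up 62.7% of the summed ligand level in WT and 61.6% in PU.1-/-, Pdgfb 23.8% and 24.3%, and Pdgfc 9.96% and 10.7%. The sum itself was 38.5 FPKM in WT against 43.9 in PU.1-/-.
Platelets and macrophages carry PDGF, so their markers are given beside these values. All 10 macrophage markers were at least 2-fold lower in PU.1-/-, with 6 of them listed at 0, and their summed level was 835 FPKM in WT against 5.74 in PU.1-/-. Of 8 platelet and megakaryocyte markers, Pf4 and Ppbp, chemokines of platelet granules, were 635 and 72.0 FPKM in WT and 2.35 and 0.217 FPKM in PU.1-/-. The surface receptor genes differed less, with Itga2b at 3.19 and 3.83 FPKM and Gp1bb at 5.25 and 4.99 FPKM, while Gp6 and Treml1 were listed at 0 in both. Gp1ba (0.629 and 0.324 FPKM) and Gp9 (0.362 and 0.420 FPKM) were low, and the intervals of both ratios held 1, with that of Gp1ba at 0.238 to 1.07. The part of these cells in the PDGF ligand levels was not tested.

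**Figure D1:**
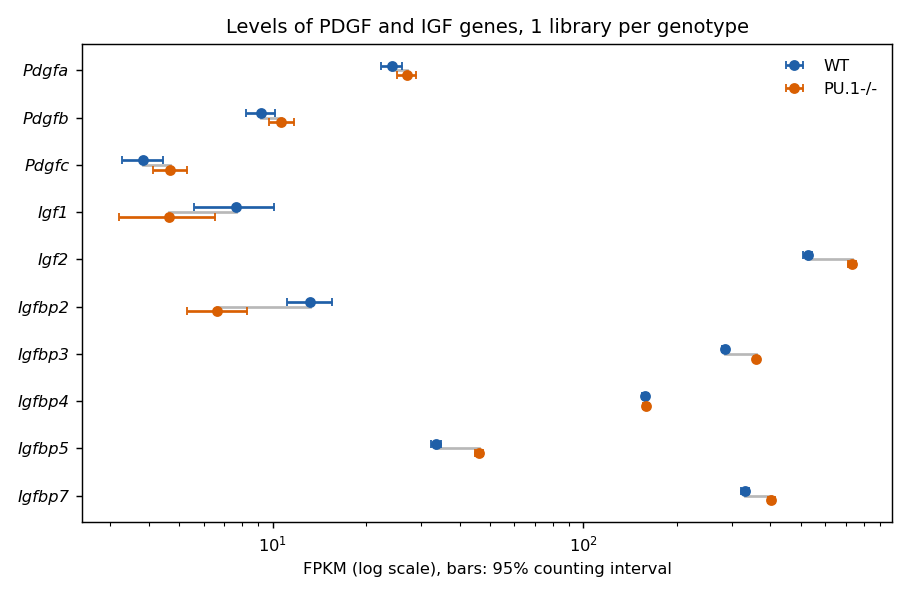
Levels of the 10 members in FPKM (log axis), 1 point for the WT library (blue) and 1 for the PU.1-/- library (orange), with 95% counting intervals from the shortest transcript. The PU.1-/- point lies left of the WT point for Igf1 and Igfbp2 only, and the points of Igfbp4 nearly coincide at 157 and 159 FPKM.

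The PDGF receptors are the cells' side of this signal, and they differed between the alpha and beta forms. Pdgfra, the receptor of dermal fibroblasts, was 61.3 FPKM in WT against 80.0 in PU.1-/-, a ratio of 1.30 (1.21 to 1.41). Pdgfrb, the receptor of pericytes, was 19.3 FPKM in WT against 20.2 in PU.1-/-, a ratio of 1.04 (0.972 to 1.12). The level of Pdgfra was 3.17 times that of Pdgfrb in WT and 3.96 times in PU.1-/-. Fibroblast markers, a list that includes Pdgfra, had a median log2 ratio of 0.26, with 9 of 10 genes higher and a summed level of 2927 FPKM in WT against 3458 in PU.1-/-. Pericyte and smooth muscle markers had a median of 0.02 (6 of 9 higher) and endothelial markers a median of 0.12 (6 of 8 higher). In bulk tissue, more cells of a type and more RNA per cell cannot be told apart. Pdgfrl, a receptor-like protein, was 6.60 and 7.31 FPKM and Nrp1, a co-receptor, 15.6 and 17.0 FPKM in WT and PU.1-/-, and the intervals of both ratios held 1.

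The second comparison concerned the IGF ligands, whose balance differed more than that of the PDGFs. Igf1 (chromosome 10, 87858265 to 87937047) was 7.64 FPKM in the WT wound against 4.64 in the PU.1-/- wound. Its level in PU.1-/- was therefore 60.8% of the WT level, a ratio of 0.608 (0.379 to 0.974). Igf1 has 5 transcripts linked to RefSeq, of 651 to 7052 nt, and the width of the interval depends on which of them were read. The shortest gives about 47 WT and 33 PU.1-/- reads and the interval above, and the longest gives about 716 and 501 reads and an interval of 0.542 to 0.684, an alternative chosen after seeing the data. Only 6.32% of the genes of at least 1 FPKM had a lower ratio than Igf1. With the libraries rescaled to the same FPKM sum, the wider interval reached 1 (0.392 to 1.01), and the narrower did not (0.560 to 0.706).
Igf2 (chromosome 7, 142650768 to 142666816) was 528 FPKM in WT against 732 in PU.1-/-. It was the most abundant member in both libraries, at rank 193 of all genes in WT and rank 155 in PU.1-/-. It was higher in the PU.1-/- library, by a ratio of 1.39 (1.33 to 1.45). Of the genes of at least 1 FPKM, 92.0% had a lower ratio. The level of Igf2 was 69.1 times that of Igf1 in WT and 158 times in PU.1-/-, a 2.28-fold difference between the wounds. Igf1 made up 1.43% of the summed IGF ligand level in WT and 0.631% in PU.1-/-, and the sum was 535 and 736 FPKM.
Part of the Igf2 gene, 7137 bases, is overlapped by the antisense RNA gene Igf2os, at 1.42 FPKM in WT against 2.40 in PU.1-/-. The library kit marks strand, but whether strand was used in counting is not given in the sources used here, so the value of Igf2os may hold reads of Igf2. H19, the noncoding RNA that shares the imprinted control region of Igf2 and lies 72621 bases from it, was 4177 FPKM in WT against 5121 in PU.1-/-, a ratio of 1.23 (1.22 to 1.24). The other genes of this list, Igf2bp1 (2.42 and 3.32 FPKM), Igf2bp2 (29.0 and 37.6 FPKM) and Igf2bp3 (12.5 and 13.4 FPKM), encode proteins that bind Igf2 mRNA, and each was higher in PU.1-/-, with an interval that held 1 for Igf2bp3. Ins2 was listed at 0 in both.
Skeletal muscle, which expresses Igf1, Igf2, H19 and Igfbp5, had higher markers in the PU.1-/- library. All 9 were higher, with a median log2 ratio of 0.66 and a summed level of 9614 FPKM in WT against 16001 in PU.1-/-. The myogenic genes Pax7, Myf5, Myod1 and Myog were at higher values as well, with Myog at 22.1 and 66.6 FPKM and Myod1 at 1.84 and 3.86 FPKM. Pax7 (0.443 and 0.493 FPKM) and Myf5 (0.693 and 1.17 FPKM) had intervals that held 1. Igf2, H19 and Igfbp5 were higher in PU.1-/- as well, and Igf1 was lower. The part of muscle in the Igf1, Igf2 and Igfbp5 differences was not tested. The cell type markers that moved in the direction of Igf1 are the same as for Igfbp2 and are given with it.

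The third comparison concerned the IGF binding proteins, which set how much IGF is free. Igfbp2 (chromosome 1, 72824480 to 72852474), a carrier with preference for IGF2, was 13.2 FPKM in WT against 6.64 in PU.1-/-. This is 50.1% of the WT level, the largest difference among the 10 members in either direction, and the ratio of 0.501 had an interval of 0.381 to 0.667 from about 143 WT and 83 PU.1-/- reads. The WT over PU.1-/- ratio, 1.995, lay just inside the threshold of 2 used for calls. Only 4.45% of the genes of at least 1 FPKM had a lower PU.1-/- over WT ratio. In WT its level was above that of Pdgfb, and in PU.1-/- below it.
Igfbp5 (chromosome 1, 72858065 to 72874865), the neighbour of Igfbp2 and a matrix-bound carrier of muscle and connective tissue, was 33.5 FPKM in WT against 46.2 in PU.1-/-. It was higher in PU.1-/-, by a ratio of 1.38 (1.32 to 1.45). The level of Igfbp5 was 2.53 times that of Igfbp2 in WT and 6.96 times in PU.1-/-, a 2.75-fold difference between the wounds.
Igfbp3 (chromosome 11, 7206086 to 7215498), the main carrier of IGFs in blood, was 285 FPKM in WT against 360 in PU.1-/-, a ratio of 1.26 (1.23 to 1.30). Igfbp7 (chromosome 5, 77349240 to 77408045), an abundant protein of vessels, was 331 FPKM in WT against 403 in PU.1-/-, a ratio of 1.22 (1.17 to 1.27). Both were higher in PU.1-/- beyond counting error. Igfbp4 (chromosome 11, 99040005 to 99052655), a carrier that inhibits IGF action and is cut by PAPP-A, was 157 FPKM in WT against 159 in PU.1-/-. Its ratio of 1.01 had an interval of 0.980 to 1.04, from about 7821 and 9079 reads, so that no difference beyond counting error was detectable with the deposited scaling. With the libraries rescaled to the same FPKM sum, this interval was 1.01 to 1.08.
Over all 7 binding protein genes, the summed level was 841 FPKM in WT against 996 in PU.1-/-. Igfbp7 made up 39.4% of it in WT and 40.4% in PU.1-/-, Igfbp3 33.8% and 36.1%, Igfbp4 18.7% and 16.0%, and Igfbp5 3.98% and 4.64%. The share of Igfbp2 was 1.57% in WT and 0.667% in PU.1-/-. Binding proteins were 1.57 times the IGF ligands in summed level in WT and 1.35 times in PU.1-/-. The largest part of that sum is Igfbp7, whose protein binds IGFs only weakly. The ratio is therefore no measure of IGF carriers against ligands. Igfbp6, a carrier of IGF2, was 21.1 and 21.8 FPKM, with a ratio of 1.03 (0.876 to 1.22). Igfbp1 was near 0, at 0.0551 FPKM in WT against 0.192 in PU.1-/-, about 1 and 4 reads.
Adipocyte markers moved in the direction of Igfbp2. Of the 5, the lipid droplet genes Plin1 (47.2 and 21.1 FPKM) and Cidec (71.1 and 36.6 FPKM) and the hormone gene Adipoq (112 and 75.7 FPKM) were clearly lower in PU.1-/-. Fabp4, a fatty acid carrier, had a ratio of 0.891, and the interval of Lpl, a lipase, held 1 (0.946 to 1.02). The median log2 ratio was -0.56, and the summed level, most of it Fabp4, was 3741 FPKM in WT against 3272 in PU.1-/-. Mast cell markers (8 of 8 lower, 3 listed at 0, summed level 742 and 14.2 FPKM) and neutrophil markers (10 of 10 lower, 4 listed at 0, 12566 and 3676 FPKM) moved the same way. The neutrophil sum was mostly S100a8 (6600.4 and 2129 FPKM) and S100a9 (5311 and 1516 FPKM), which keratinocytes of a wound also make, and the interval of Mpo held 1. Macrophage markers, given above, were lower too, so that all 4 lists moved in the direction of both Igfbp2 and Igf1. The part of these cell types in either difference was not tested. Keratinocyte markers, with 9 of 9 genes higher and a median of 0.28, moved the other way. So did Schwann cell markers, with 4 of 4 higher and a median of 0.44. Red blood cell markers were 5 of 5 higher by value, with a median of 0.53. Of these, Hbb-b1 (744 and 763 FPKM) and Hbb-b2 (168 and 171 FPKM) were nearly equal and had no counting interval. Fibroblast markers (9 of 10 higher, median 0.26) and skeletal muscle markers (9 of 9 higher, median 0.66) also moved the other way from Igfbp2 and Igf1. Fibroblasts, muscle and macrophages are all local sources of IGF1, and the part of each in the Igf1 level was not tested.

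**Figure D2:**
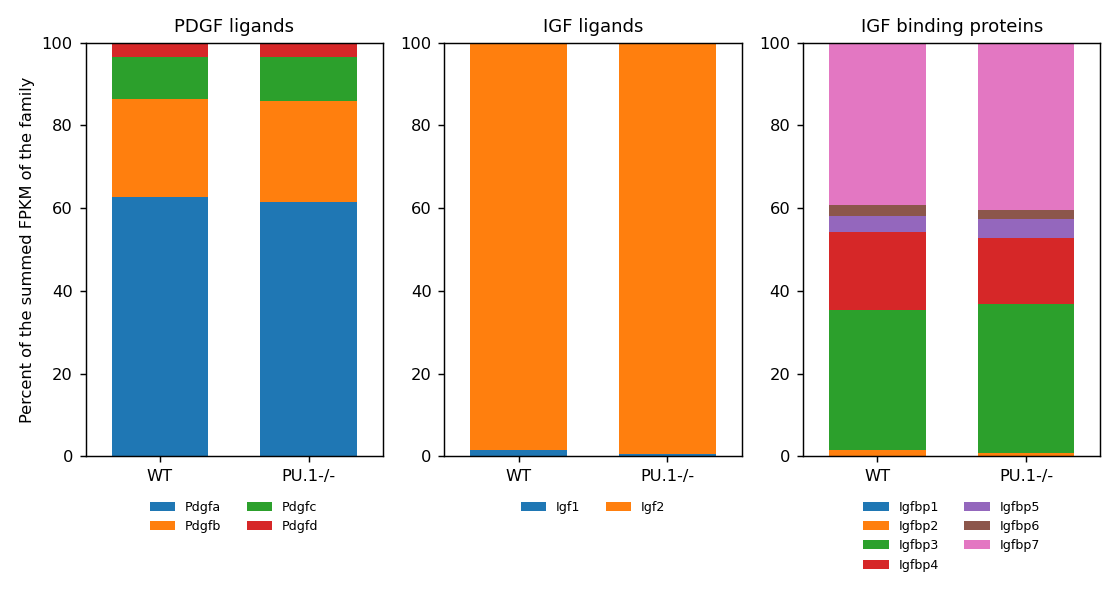
Share of each gene in the summed FPKM of its family, in percent, with 1 bar per library for the PDGF ligands, the IGF ligands and the IGF binding proteins. Igf1 is the thin lowest band of its panel, at 1.43% in WT and 0.631% in PU.1-/-, and the bands of the PDGF ligands are nearly level.

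In WT the levels of the 10 members ran in the order Igf2, Igfbp7, Igfbp3, Igfbp4, Igfbp5, Pdgfa, Igfbp2, Pdgfb, Igf1, Pdgfc, and neighbours differed beyond their counting intervals except Pdgfb and Igf1. In PU.1-/- the first 6 kept these places. They were followed by Pdgfb, Igfbp2, Pdgfc and Igf1, where Igfbp2 and Pdgfc overlapped, as did Pdgfc (4.69 FPKM) and Igf1 (4.64 FPKM). Igf1 was thus above Pdgfc in WT, and the pair could not be told apart by counting in PU.1-/-. These overlaps are from the shortest transcripts. With the longest, only that of Pdgfc and Igf1 remained, and the WT intervals of Pdgfb and Igf1 nearly met.
None of the 10 members passed a ratio of 2 in either direction, while 4.34% of all genes listed were lower and 2.32% higher by that rule, with FPKM below 0.1 raised to 0.1. At a ratio of 1.5, 2 members were lower (Igf1 and Igfbp2) and none was higher, against 7.67% of all genes lower and 5.79% higher, or 8.17% and 5.45% of the genes of at least 1 FPKM. Of the 10 members, 8 were higher and 2 lower, and their median log2 ratio was 0.25, ranging from -0.997 for Igfbp2 to 0.47 for Igf2. Over the 13237 genes of at least 1 FPKM, 49.3% were higher and the median was -0.004. The counting interval lay above 1 for 7 members, below 1 for 2 and held 1 for Igfbp4.

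**Figure D3:**
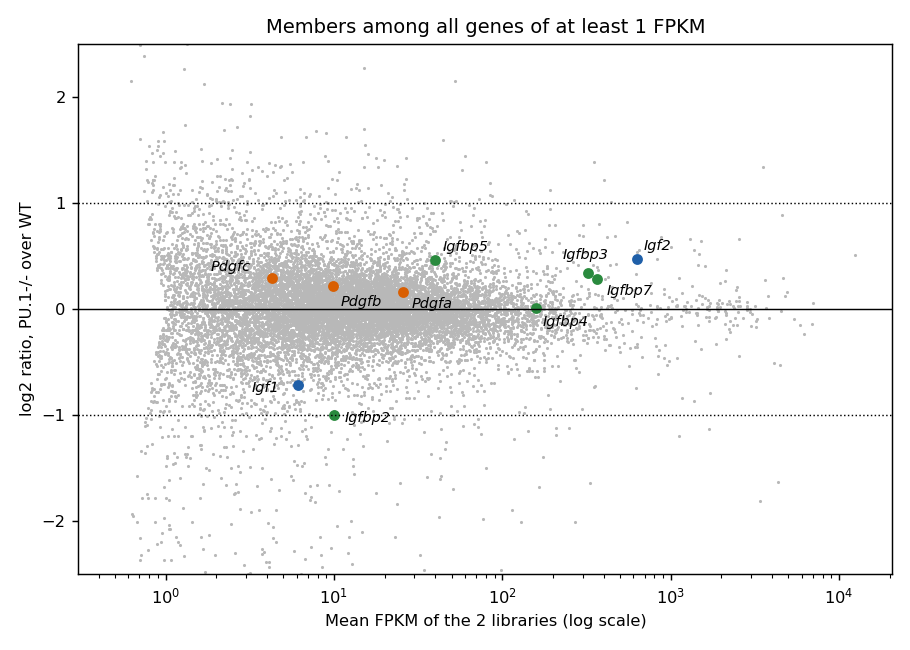
The log2 ratio of PU.1-/- over WT against the mean FPKM of both libraries (log axis), for genes of at least 1 FPKM in 1 or both (grey), with PDGF ligands in orange, IGF ligands in blue and binding proteins in green. Dotted lines mark 2-fold, 358 genes lie outside the plotted range of 2.5, and Igfbp2 sits at the lower line with a log2 ratio of -0.997.

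The receptors and adaptors of the IGFs were read next, as the genes through which the ligands act. All 6 that were expressed were higher in PU.1-/-, with Insrr listed at 0 in both. Igf1r, the signalling receptor, was 8.83 FPKM in WT against 12.2 in PU.1-/-, a ratio of 1.39 (1.30 to 1.49). Igf2r, which takes up IGF2 for breakdown, was 17.2 FPKM in WT against 27.3 in PU.1-/-, a ratio of 1.59 (1.51 to 1.68). Both receptors were higher beyond counting error. Grb10, an adaptor that dampens insulin and IGF signals, was 36.1 and 53.7 FPKM, a ratio of 1.49 (1.41 to 1.57). Irs2, a substrate of the receptors, was 14.3 and 18.3 FPKM, a ratio of 1.28 (1.19 to 1.38). Insr (6.55 and 7.29 FPKM) and Irs1 (3.89 and 4.25 FPKM) differed least, and the interval of Irs1 held 1. The level of Igf2 was 30.8 times that of Igf2r in WT and 26.8 times in PU.1-/-.
The proteases that free these factors went in different directions. Pappa2, the protease of IGFBP3 and IGFBP5, was 8.46 FPKM in WT against 19.1 in PU.1-/-, a ratio of 2.26 (2.11 to 2.43). Pappa, the protease of IGFBP4, was 2.94 FPKM in WT against 5.001 in PU.1-/-, a ratio of 1.70 (1.52 to 1.92). Both were higher in PU.1-/-. Their inhibitors were Stc1, at 14.2 and 14.1 FPKM, and Stc2, at 4.37 and 5.31 FPKM. Plat, tissue plasminogen activator, which activates PDGF-C, was 18.3 FPKM in WT against 9.90 in PU.1-/-, a WT over PU.1-/- ratio of 1.84 (1.61 to 2.11). Plau, urokinase, was 20.0 FPKM in WT against 12.2 in PU.1-/-, a WT over PU.1-/- ratio of 1.63 (1.44 to 1.86). Both plasminogen activators were lower, while Furin (104 and 97.6 FPKM) and Htra1 (38.1 and 37.8 FPKM) differed little.
A pair of muscle ubiquitin ligases, genes that FOXO factors switch on and IGF signalling holds down, were, with Pappa2, the pathway genes of at least 1 FPKM that passed a ratio of 2. Fbxo32 was 16.1 FPKM in WT against 37.8 in PU.1-/-, a ratio of 2.35 (2.22 to 2.497). Trim63 was 54.2 FPKM in WT against 114 in PU.1-/-, a ratio of 2.11 (1.98 to 2.26). They were higher in PU.1-/-, as were the muscle markers. The log2 ratios were 1.23 for Fbxo32 and 1.08 for Trim63, and those of the markers ran from 0.52 to 1.04. The part of muscle in the difference of these ligases was not tested. Foxo3 was 17.5 and 24.4 FPKM and Foxo1 7.89 and 9.57 FPKM. Akt1, at 125 and 118 FPKM, Akt2, at 67.1 and 74.2 FPKM, Pik3ca, at 9.93 and 12.3 FPKM, and Pik3r1, at 19.5 and 22.7 FPKM, differed by a ratio of at most 1.24.
In the growth hormone axis, which drives Igf1 in the liver, Ghr was 47.1 FPKM in WT against 38.9 in PU.1-/-, a WT over PU.1-/- ratio of 1.21 (1.08 to 1.35). Stat5a was 9.43 and 7.86 FPKM, and Stat5b 9.85 and 11.1 FPKM. Socs2, a target of this axis, was 11.9 and 14.9 FPKM, with an interval that held 1. By value, Ghr and Stat5a were thus lower, like Igf1, and Stat5b and Socs2 were higher. The median log2 ratio of the list was -0.04, with 2 genes higher and 2 lower.
Over the 42 pathway genes outside the members, 37 reached 1 FPKM in 1 or both libraries, of which 29 were higher and 8 lower, with a median log2 ratio of 0.22. By a ratio of 2, 3 of the 37 were higher (Pappa2, Fbxo32 and Trim63) and none lower, against 1.71% higher and 4.45% lower among genes of that level. Below 1 FPKM, Igfals, a carrier subunit made by the liver, was 0.948 FPKM in WT against 0.297 in PU.1-/-, about 31 and 11 reads, the largest difference of these lists, with a WT over PU.1-/- ratio of 3.19 (1.58 to 7.14). Igfbpl1 was listed at 0 in both.

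**Figure D4:**
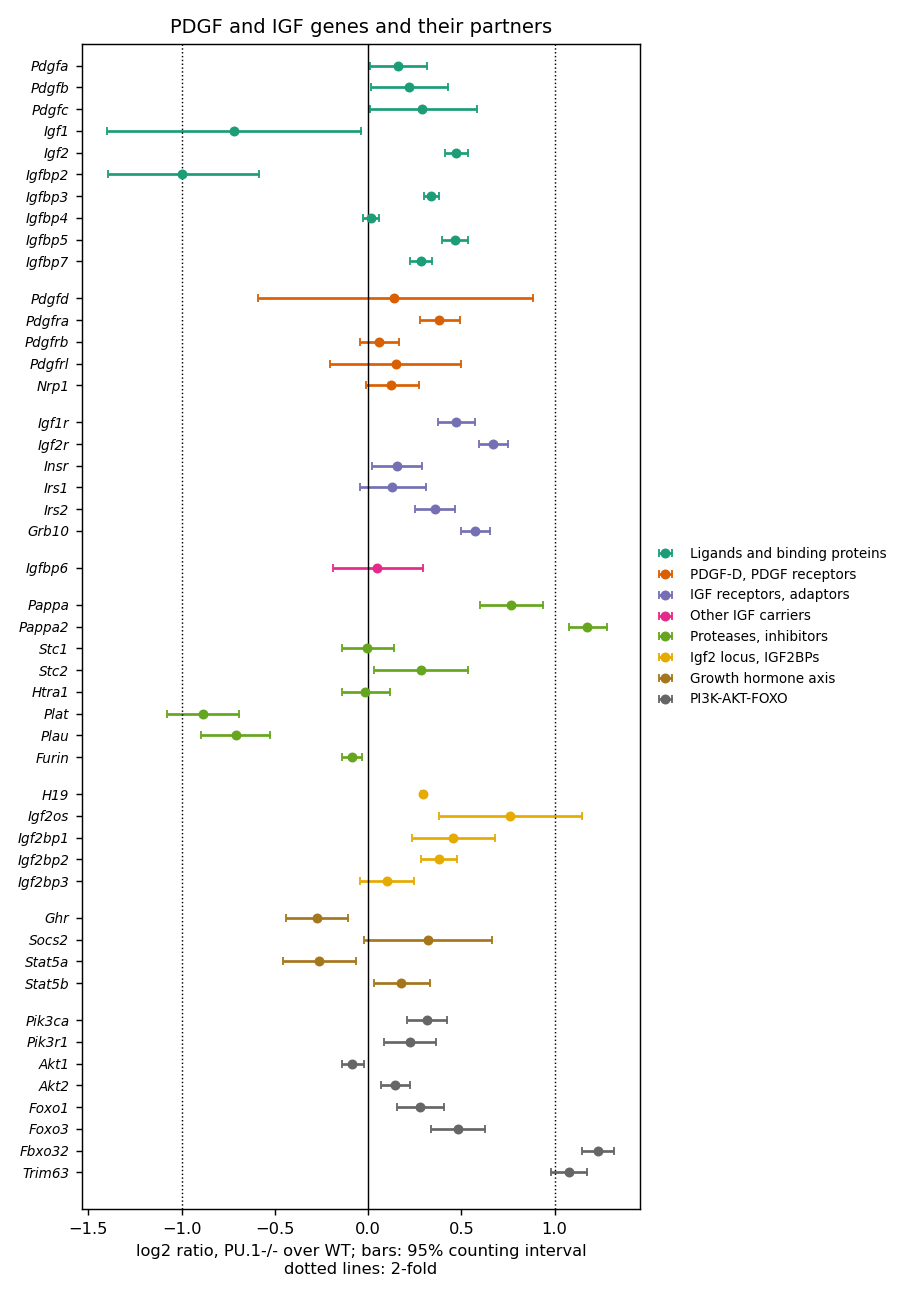
The log2 ratio of PU.1-/- over WT with 95% counting intervals for the 10 members (top) and the pathway genes of at least 1 FPKM in 1 or both libraries, coloured by list, with dotted lines at 2-fold. Pappa2, Fbxo32 and Trim63 lie right of the upper line, and Igf1, Igfbp2, Plat and Plau form the points farthest left, at -0.72, -0.997, -0.88 and -0.71.

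**Figure D5:**
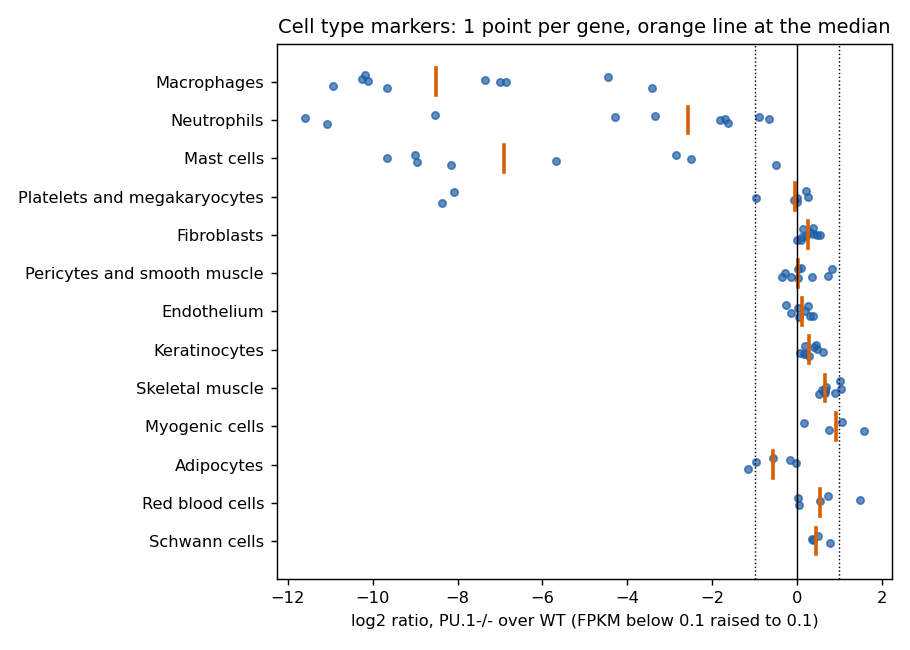
The log2 ratio of PU.1-/- over WT for the marker genes of each cell type, 1 point per gene, with the median in orange and FPKM below 0.1 raised to 0.1. Macrophage and mast cell markers lie far left, at medians of -8.51 and -6.92 that depend on the value raised to, adipocyte markers left of 0 at -0.56, and skeletal muscle markers right of 0 at 0.66.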

How the data were processed

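The authors prepared stranded mRNA libraries from wound RNA, sequenced single-end reads and mapped them to mm10. The deposited FPKM values were calculated with Cuffnorm per the study's methods, and per the labels with Cuffdiff 2.2.1 after TopHat2 2.1.1, Bowtie2 2.2.8 and SAMtools 0.1.18. For the annotation, filters and use of strand in counting, nothing was given in the sources used here. FPKM was scaled between the libraries by the authors.

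From the FPKM, values below 0.1 were raised to 0.1 and the ratio of PU.1-/- over WT was taken. Depth was the fragment number at which low values of 2231 single-transcript genes (at least 800 nt, less 200 nt for fragment length) were closest to whole reads. Of the values between 0.5 and 5.5 reads, 83.4% of 464 in WT and 85.1% of 410 in PU.1-/- lay within 0.15 of a whole number. The WT over PU.1-/- ratio of FPKM at equal read numbers, 1.149 (459 genes), scaled the intervals of ratios; it rests on the same low values and is no separate check of depth. Transcript lengths were GENCODE M21's for transcripts linked to RefSeq, found for 21689 genes, so reads of genes with several transcripts are rough. Intervals were Clopper-Pearson for ratios and exact Poisson for levels. Positions and promoters were RefSeq's on GRCm38.p6, with positions for all 10 members and promoters for 9. Functions were tested on simulated libraries. The members, lists, motifs and alternatives were chosen with earlier results of these data known. All members, and every pathway gene of the lists of at least 1 FPKM, were named, except 1 listed gene that is not reported here and was left out of the counts, and marker genes, Xist, Ddx3y and genes below that level were picked after their values were seen. Alternatives were other floors, pseudocounts, scalings, filters and fold thresholds. Tools were matplotlib 3.10.9 for figures and scipy 1.17.1, numpy 2.4.6 and pandas 2.3.3 under Python 3.11.15.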

Additional observations from a re-analysis of the deposited data

How the results depend on the processing

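No paired analysis was possible because each genotype has 1 library, and for the same reason no replicate could be left out. Under 6 alternatives of floor, pseudocount and scaling, the 10 members kept their direction, with log2 ratios of -0.72 to -0.61 for Igf1, -0.998 to -0.899 for Igfbp2 and 0.47 to 0.52 for Igf2. Igfbp3 left its counting interval with the libraries rescaled to the same FPKM sum, at 0.38. That rescaling raised every PU.1-/- value by 0.05 on the log2 scale. A fold threshold of 1.5 made 2 members lower. Of all genes, 463 were lower and 164 higher with values raised to 1 FPKM, 461 and 89 with a pseudocount of 1 FPKM, 1867 and 1410 at a threshold of 1.5, 681 and 150 at a threshold of 3, 589 and 226 among genes of at least 1 FPKM, and 306 and 98 among genes of at least 5 FPKM, against 1057 and 565. These counts follow from the construction of each alternative. In estimated reads, which are not divided by length, Igfbp2 made up 0.605% of the binding proteins in WT and 0.258% in PU.1-/-, and Igfbp3 and Igfbp4 came before Igfbp7, at 36.5%, 33.0% and 17.5% in WT and 39.2%, 28.3% and 18.1% in PU.1-/-. With values raised to 1 FPKM, the median log2 ratio of macrophage markers was -6.37 and that of mast cell markers -4.59. Few reads lie behind the ratios of Igfbp2 and Pdgfc among the members, and behind that of Igf1 if its shortest transcript was the one read. The spread between animals is unknown for all genes.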
